A study of Mus musculus with 24 samples.

Results

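The comparison described here asks whether loss of Prkar1a changes the male adrenal gland differently once the testes have been removed. It is the knockout effect in gonadectomised males (knockout minus control) minus the knockout effect in intact males. It rests on 16 of the 24 arrays of the series, 4 in each of 4 groups of males, and was computed for each of 14411 genes. Each value is a log2 RMA signal, a background-corrected and normalised summary of the probes of a gene, so a difference of 1 is a 2-fold change. A positive difference means that the knockout raised a gene more, or lowered it less, after gonadectomy than with the testes in place.

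All mice were 7 months old, on a mixed sv129 and C57Bl/6 background, and RNA came from the whole adrenal gland, 1 biological replicate per array. Knockout (KO) males carried Prkar1a fl/fl and 1 copy of a Cre recombinase placed in the Cyp11b2 locus, Cyp11b2tm1.1(cre)Brlt, which is active in the aldosterone-making cells of the outer cortex. Gonadectomised (GDX) males had been without testes for the last 2 months. The controls (WT) did not share 1 genotype. The intact WT males carried Prkar1a fl/fl without Cre, so no Cre stood in their Cyp11b2 locus. Of the WT GDX males, array 1 carried wild-type Prkar1a alleles and no Cre, arrays 2 and 3 carried wild-type Prkar1a alleles with Cre, and array 4 carried 1 floxed allele with Cre. All mice carried the mTmG reporter on both alleles except that of WT GDX array 2, which had 1 copy. In the difference, and in every effect of gonadectomy in WT males given below, the genotype of the controls and the gonadal state cannot be told apart. The 8 female arrays (4 KO and 4 WT) share in the choice of probe set, the filter and the spread behind every standard error and p. Their levels enter only where they are named. KO females carried the genotype of the KO males, and WT females 1 floxed allele with 1 copy of Cre, a further kind of control.

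Prkar1a encodes a regulatory subunit that keeps protein kinase A (PKA) inactive until cyclic AMP binds it. Losing it leaves PKA more active, and in humans inactivating mutations cause Carney complex with adrenal nodules and cortisol excess. In the adrenal cortex PKA carries the signal of the pituitary hormone ACTH, which drives cholesterol uptake and steroid synthesis. The mouse cortex also differs between the sexes, because testicular androgens act on it, among other effects by making the inner X-zone regress in males at puberty.

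Of 14411 genes, 4 passed a Benjamini-Hochberg adjusted p of 0.05 in limma (0.0278%), 3 with a positive difference (0.0208%) and 1 with a negative one (0.00694%). The positive genes were Bpifc, Ceacam1 and Eda, and the negative gene was Acpp. An unadjusted p under 0.05 was found for 1361 genes (9.44%), 714 positive and 647 negative, and 70 genes had an adjusted p under 0.2. The estimated difference was at least 2-fold for 80 genes, of which 3 were called. The median standard error of the difference was 0.14 on the log2 scale, against 0.10 for the knockout effect in either gonadal state. The count of 4 rested on single arrays. It was 88 (56 positive, 32 negative) without KO GDX array 1 and 30 (15 and 15) without WT GDX array 1, the GDX control without Cre. It was 7 without KO intact array 2, and 2 without KO intact array 3, WT GDX array 2, KO GDX array 3 or KO GDX array 4.

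**Figure D1:**
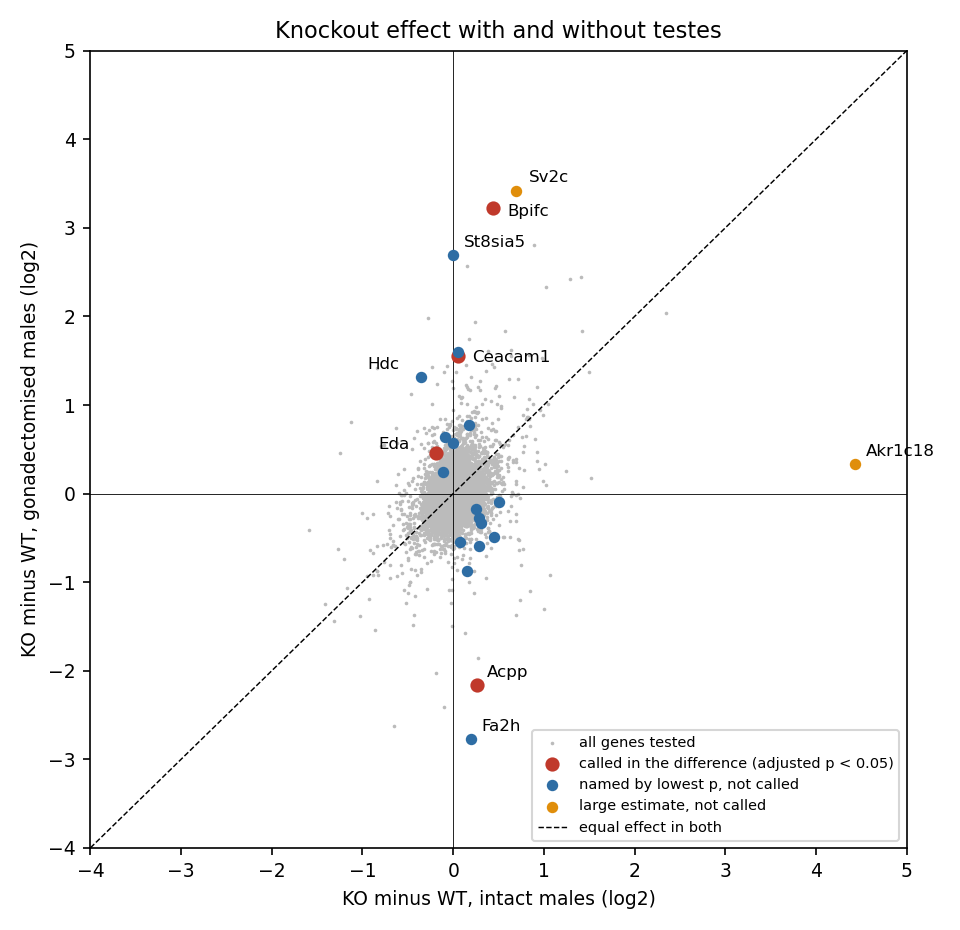
The knockout effect (KO minus WT, log2) in intact males on the horizontal axis and in gonadectomised males on the vertical axis, for 14411 genes, with the dashed line marking equal effects. Bpifc, Ceacam1 and Eda lie above the line and Acpp below it; Akr1c18, at 4.43 in intact and 0.33 in gonadectomised males, lies far below it and was not called.

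The sequences upstream of the 4 called genes are shown because a response that differs with testicular hormones can be read beside the letters of the motifs that steroid receptors and cyclic AMP-responsive factors are known to bind. Each is the 250 bases before the annotated start in RefSeq (GRCm38.p6), written 5′ to 3′ on the strand of the gene, with matches to AGAACA, a half-site of androgen and glucocorticoid receptors, in capitals. The window of Bpifc is chr10:86011861-86012110, minus strand. That of Ceacam1 is chr7:25477626-25477875, minus strand, that of Eda is chrX:99975356-99975605, plus strand, and that of Acpp is chr9:104337723-104337972, minus strand.
Bpifc: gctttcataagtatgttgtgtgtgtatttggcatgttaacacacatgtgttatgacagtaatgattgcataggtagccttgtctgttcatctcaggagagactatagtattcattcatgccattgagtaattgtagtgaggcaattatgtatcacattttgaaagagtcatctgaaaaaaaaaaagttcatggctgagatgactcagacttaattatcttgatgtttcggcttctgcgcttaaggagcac
Ceacam1: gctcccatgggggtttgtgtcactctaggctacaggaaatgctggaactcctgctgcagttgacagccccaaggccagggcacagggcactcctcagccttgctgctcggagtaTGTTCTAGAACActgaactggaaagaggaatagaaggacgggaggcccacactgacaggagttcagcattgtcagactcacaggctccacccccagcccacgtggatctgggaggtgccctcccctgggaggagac
Eda: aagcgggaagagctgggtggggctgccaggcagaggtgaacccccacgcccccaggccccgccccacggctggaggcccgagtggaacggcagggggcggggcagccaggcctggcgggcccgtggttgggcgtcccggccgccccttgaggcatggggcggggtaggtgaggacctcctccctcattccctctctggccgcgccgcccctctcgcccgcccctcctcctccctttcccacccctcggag
Acpp: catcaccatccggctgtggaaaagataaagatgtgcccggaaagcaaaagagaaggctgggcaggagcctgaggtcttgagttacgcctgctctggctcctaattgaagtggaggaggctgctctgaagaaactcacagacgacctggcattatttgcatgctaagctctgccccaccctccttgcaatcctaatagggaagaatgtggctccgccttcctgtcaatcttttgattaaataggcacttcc

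Ceacam1 held 2 matches to AGAACA, on opposite strands and directly adjoining, beginning 136 and 130 bases before the start. Bpifc, Eda and Acpp held 0. Among the 20 genes of lowest p in the difference (10 in each direction), 11 had a window in the table, and AGAACA occurred in 3 of them, Ceacam1, Hdc and Gpr141b, against 16.1% of all 32851 windows. The palindrome TGACGTCA, the full cyclic AMP response element, and TGACG, its half-site, occurred in 0 of the 11, against 1.55% and 17.8% of all windows. AAGGTCA, the site of the NR5A factors that drive steroidogenic genes, occurred in 1, H2aj, against 4.08%. Both strands were searched, and every TGACGTCA also holds TGACG. These are matches of letters, and binding was not measured.

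Prkar1a itself lay lower in KO arrays in both gonadal states. Its log2 level was 8.89, 8.72, 8.75 and 8.91 in WT intact and 6.89, 8.08, 8.47 and 8.13 in KO intact males. After gonadectomy it was 8.94, 8.92, 8.73 and 8.59 in WT and 7.99, 7.66, 7.30 and 7.45 in KO males. KO and WT arrays did not overlap in either state, with KO intact array 1 lowest of all and KO GDX array 1 the highest of the KO GDX arrays. The knockout effect was -1.19 ± 0.23 (log2 ± standard error, limma adjusted p 0.00477) in GDX males and -0.92 ± 0.23 (adjusted p 0.16) in intact males, and their difference of -0.27 ± 0.32 did not pass the test (adjusted p 0.85). The gland is measured whole, so this level mixes recombined and other cells, and here as for every gene below fewer cells of a type and less RNA per cell cannot be told apart.

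Cyp11b2, aldosterone synthase and the gene whose locus carries Cre, stood lower in the WT males with Cre than in those without it. It stood at 11.79, 11.01, 11.55 and 11.54 in WT intact and 11.42, 10.35, 9.80 and 10.46 in WT GDX males. The 5 WT males without Cre, GDX array 1 among them, lay between 11.01 and 11.79, and the 3 with Cre between 9.80 and 10.46. All 3 with Cre were gonadectomised, and of the 5 without it only GDX array 1 was, so Cre and gonadectomy are largely confounded. WT females, all with Cre, stood at 9.71, 10.97, 11.11 and 11.04. KO intact males stood at 9.91, 11.09, 10.69 and 10.40 and KO GDX males at 10.55, 9.89, 10.37 and 10.13. Its difference of knockout effects was 0.68 ± 0.51 (adjusted p 0.73). Among the 50 protein-coding genes on either side of Cyp11b2 in RefSeq, 66 were tested and 0 were called in the difference, with 7 (10.6%) at an unadjusted p under 0.05, against 9.44% of all genes. Around Prkar1a, 76 were tested, 0 were called, and 10 (13.2%) had an unadjusted p under 0.05, against the same 9.44%. Flanking sequence carried along with either modified allele was not tested.

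Bpifc had the largest called difference. It encodes a member of the BPI fold family of lipid-binding proteins. Its level was 6.28, 7.00, 8.10 and 8.18 in KO GDX males. It lay under 5 in every other male array, at 3.72, 3.69, 3.89 and 3.95 in WT intact, 4.78, 3.89, 3.96 and 4.38 in KO intact and 4.10, 4.16, 3.85 and 4.55 in WT GDX males. Only the KO GDX group thus rose above the level below which signals were too dim to read, and it did not overlap any other group of males. Bpifc passed the filter only through KO GDX and KO female arrays, so the filter itself favoured this pattern. The knockout effect was 3.23 ± 0.30 (adjusted p 6.72e-06) after gonadectomy and 0.44 ± 0.30 (adjusted p 0.809) with the testes in place. The difference was 2.79 ± 0.43 (6.9-fold, adjusted p 0.0117), and its size is uncertain because the reference levels are dim.

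Ceacam1, a cell adhesion molecule of the immunoglobulin family found on epithelial, endothelial and immune cells, was readable in all groups. It stood at 10.07, 9.64, 9.27 and 9.51 in WT intact, 10.06, 9.36, 9.48 and 9.79 in KO intact and 9.71, 9.41, 9.31 and 9.95 in WT GDX males, 3 groups that overlapped throughout. In KO GDX males it stood at 10.75, 11.05, 11.29 and 11.52, above every other male array. The knockout effect was 1.56 ± 0.18 (2.94-fold, adjusted p 6.53e-05) in GDX and 0.05 ± 0.18 (adjusted p 0.977) in intact males, a difference of 1.5 ± 0.25 (adjusted p 0.02). The call ended in 5 of the 16 fits with 1 array left out, at adjusted p up to 0.0793, and with the 16 male arrays alone (adjusted p 0.114).

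Eda encodes ectodysplasin, a ligand of the tumour necrosis factor family known for the development of hair, teeth and glands. Its level was 7.20, 7.26, 7.30 and 7.35 in WT intact and 7.10, 7.17, 7.00 and 7.09 in KO intact males. After gonadectomy it was 6.68, 6.58, 6.78 and 6.70 in WT and 6.97, 7.09, 7.23 and 7.25 in KO males. Gonadectomy lowered it in WT males (-0.59 ± 0.08, adjusted p 8.66e-05) to below every other male array, and in KO males the effect of gonadectomy was 0.05 ± 0.08 (adjusted p 0.732). The knockout effect was accordingly 0.45 ± 0.08 (adjusted p 0.00206) in GDX and -0.19 ± 0.08 (adjusted p 0.562) in intact males, a difference of 0.64 ± 0.11 (1.56-fold, adjusted p 0.02). This call ended in 7 of the 16 fits with 1 array left out, at adjusted p up to 0.0793.

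Acpp, prostatic acid phosphatase, a gene known for its regulation by androgens in the prostate, went the other way. It stood at 5.48, 5.34, 5.48 and 5.25 in WT intact and 5.99, 5.54, 5.31 and 5.74 in KO intact males, groups that overlapped. Gonadectomy raised it to 8.27, 8.52, 7.91 and 9.14 in WT males (3.08 ± 0.26, 8.43-fold, adjusted p 6.13e-07). In KO males it reached 6.58, 6.57, 5.92 and 6.10, and the effect of gonadectomy there, 0.65 ± 0.26, did not pass the test (adjusted p 0.0953). After gonadectomy the knockout thus lowered Acpp by 2.17 ± 0.26 on the log2 scale (4.49-fold, adjusted p 0.000119), against a knockout effect of 0.26 ± 0.26 (adjusted p 0.899) in intact males. The difference was -2.42 ± 0.37 (adjusted p 0.0117). Bpifc and Acpp kept their calls in all 16 fits with 1 array left out.

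**Figure D2:**
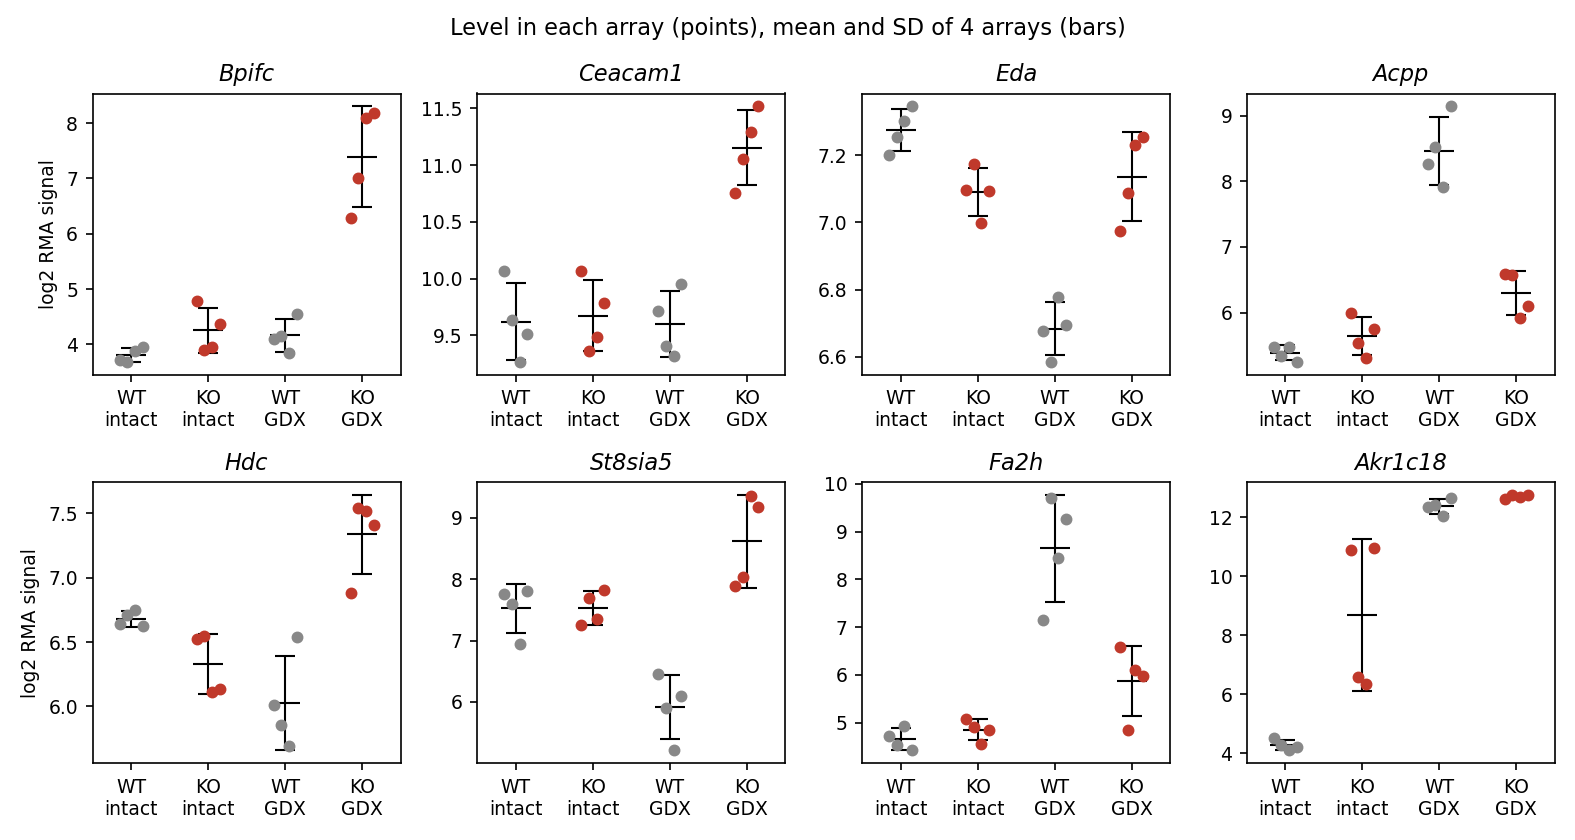
The log2 RMA signal of 8 genes in the 4 groups of males, with 1 point per array (grey WT, red KO) and bars for the mean and SD of 4 arrays; the vertical axes differ and do not start at 0. Bpifc and Ceacam1 stand high in KO GDX males alone, Acpp and Fa2h rise in WT GDX males above all other groups, and Akr1c18 is at 12.04 or higher in every GDX array.

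The other positive genes of lowest p, which did not pass the test, fell into similar groups by level. Hdc, histidine decarboxylase, the enzyme that makes histamine, stood at 6.64, 6.71, 6.75 and 6.62 in WT intact, 6.52, 6.55, 6.11 and 6.14 in KO intact and 6.01, 5.85, 5.70 and 6.54 in WT GDX males. In KO GDX males it stood at 6.88, 7.54, 7.52 and 7.41, above all other male arrays, for a difference of 1.66 ± 0.30 (adjusted p 0.0526, and 0.0186 with the 16 male arrays alone). Hdc is known from mast cells. Cpa3, a carboxypeptidase of mast cells, had a difference of -1.22 (adjusted p 0.299) and the stem cell factor receptor Kit one of -0.20 (adjusted p 0.92), and the part of mast cells in the difference of Hdc was not tested. Cdh17, a cadherin of intestinal epithelium, was at 4.85, 5.64, 6.28 and 6.33 in KO GDX males and at 3.85 to 4.63, under the readable level, in the other 12 male arrays. Its difference was 1.55 (adjusted p 0.105).

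St8sia5, a sialyltransferase that builds gangliosides, resembled Eda. It stood at 7.75, 7.59, 6.95 and 7.81 in WT intact, 7.25, 7.69, 7.35 and 7.82 in KO intact and 6.46, 5.90, 5.21 and 6.10 in WT GDX males, and at 7.89, 8.03, 9.36 and 9.17 in KO GDX males. Gonadectomy lowered it in WT males (-1.61 ± 0.37, adjusted p 0.0156), and the effect in KO males was 1.09 ± 0.37 (adjusted p 0.0505). Its difference was 2.69 ± 0.52 (adjusted p 0.0731, and 0.0492 with the 16 male arrays alone), but that of its second, dimmer probe set was 0.27. Scarb1, the receptor that takes up lipoprotein cholesterol for steroid synthesis, was likewise lowered by gonadectomy in WT males (-0.44 ± 0.09, adjusted p 0.00836), from 12.08, 12.12, 11.93 and 12.06 to 11.51, 11.56, 11.53 and 11.82. It went from 12.35, 12.19, 12.14 and 12.21 in KO intact to 12.05, 12.46, 12.53 and 12.49 in KO GDX males, an effect of 0.16 ± 0.09 (adjusted p 0.252), and its difference was 0.60 (adjusted p 0.105). The remaining positive genes were Trp53i11, induced by p53, at 0.57 (adjusted p 0.105), Vps33b, a vesicle-sorting protein, at 0.73 (adjusted p 0.105), and Sike1, a suppressor of the kinase IKBKE, at 0.36 (adjusted p 0.122).

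Over the 10 positive genes of lowest p, 0 were called in the knockout effect of intact males, where the background of rises is 0.0694%. In the GDX males the same knockout effect was called higher in 10 of 10 (background 2.26%), a count that the choice of genes by their difference largely fixes. Gonadectomy lowered 4 of the 10 in WT males, Eda, St8sia5, Scarb1 and Trp53i11 (background 2.55%), and raised 0. In KO males it raised 6 of the 10, Bpifc, Ceacam1, Hdc, Cdh17, Vps33b and Sike1 (background 6.85%), and lowered 0. The difference is also the gonadectomy effect in KO minus that in WT males, from the same arrays, so the choice of genes largely fixes these counts and nothing is read from them.

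Fa2h, fatty acid 2-hydroxylase, which makes the hydroxylated sphingolipids of myelin and skin, led the negative genes after Acpp and resembled it. It stood at 4.72, 4.54, 4.94 and 4.42 in WT intact and 5.08, 4.92, 4.56 and 4.85 in KO intact males, near or under 5. After gonadectomy it stood at 7.15, 9.71, 8.45 and 9.27 in WT males (3.99 ± 0.40, 15.9-fold, adjusted p 4.00e-06). In KO males it stood at 6.58, 4.84, 6.10 and 5.98 (1.02 ± 0.40, adjusted p 0.0867). The sizes are uncertain because the intact levels are dim. WT GDX array 1, without Cre, was lowest in WT GDX and KO GDX array 1 highest in KO GDX males, and these 2 groups did not overlap. The difference was -2.97 ± 0.57 (adjusted p 0.0731), and -3.47 (adjusted p 0.00299) without WT GDX array 1, the control without Cre. Gpr141b, an orphan receptor, stood at 5.15, 5.55, 5.50 and 5.14 in WT GDX and 4.66, 4.46, 4.56 and 4.17 in KO GDX males, a low signal throughout, with a difference of -1.02 (adjusted p 0.105). With the replicate number as a block its adjusted p was 0.0103, and it was then called together with the 4 genes above. H2aj, a histone H2A variant, had a difference of -0.88 (adjusted p 0.105).

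The other negative genes had estimates below 0 in the GDX knockout and above 0 in the intact one, a pattern that the choice by the difference favours. The sizes were similar for Endod1, Arhgap31, Aplnr and Acvr1. Zfp28 was 1.46-fold lower in the GDX and 1.05-fold higher in the intact knockout, and Efemp1 differed mainly in the intact one. Efemp1, an extracellular matrix protein, rose in the intact knockout (0.51 ± 0.09, adjusted p 0.0296) and stood at -0.10 ± 0.09 (adjusted p 0.612) in the GDX knockout, a difference of -0.61 (adjusted p 0.112). Aplnr, the apelin receptor of endothelial cells, was at -0.49 in GDX and 0.45 in intact males, a difference of -0.94 (adjusted p 0.122). Acvr1, a receptor for bone morphogenetic proteins, had a difference of -0.64 (adjusted p 0.157) and Arhgap31 of -0.42 (adjusted p 0.105). Zfp28, a zinc finger gene, was at -0.63 (adjusted p 0.0889) and Endod1, an endonuclease domain protein, at -0.56 (adjusted p 0.0811). Of the 10 negative genes, 5 were called lower in the GDX knockout, Acpp, Fa2h, Zfp28, Gpr141b and H2aj (background 1.97%). In the intact knockout 0 were called lower (background 0.0416%) and 1, Efemp1, higher (background 0.0694%). Gonadectomy raised 4 of the 10 in WT males, Acpp, Fa2h, Gpr141b and H2aj (background 1.94%). In KO males it lowered 6, Endod1, Zfp28, Arhgap31, Efemp1, Aplnr and Acvr1 (background 8.59%). As for the positive genes, the choice by the difference largely fixes these counts, and Gpr141b was over 5 in no male array outside the WT GDX group.

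Which of these 20 genes passed depended on the arrays used. Without KO GDX array 1, 19 of the 20 were called in the difference, all but Sike1, and without WT GDX array 1, 12 were. Over all 14411 genes, 88 and 30 were called in these fits. The 20 were chosen by lowest p in this same difference, so they are the likeliest to pass in such fits. In KO GDX array 1 several knockout responses were the smallest of its group, as in Bpifc, Ceacam1, Eda, Hdc, St8sia5 and Scarb1, and its Prkar1a level was the highest of the group. When limma weighted arrays by their spread around the group means, this array had a weight of 0.59 against 1.83 for KO GDX array 3. The count of called genes was then 45, with all 4 kept. How far recombination was complete in this gland was not tested. WT GDX array 1 stood apart from its group in more than its lack of Cre. Cyp17a1, a gene of androgen synthesis, was at 7.64 in it and at 6.81 in KO GDX array 1, which carried Cre. The other male arrays lay between 3.91 and 5.55. Both arrays also had the highest mean level of medulla markers in their groups, 9.63 and 9.54. What set these 2 arrays apart was not tested.

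**Figure D3:**
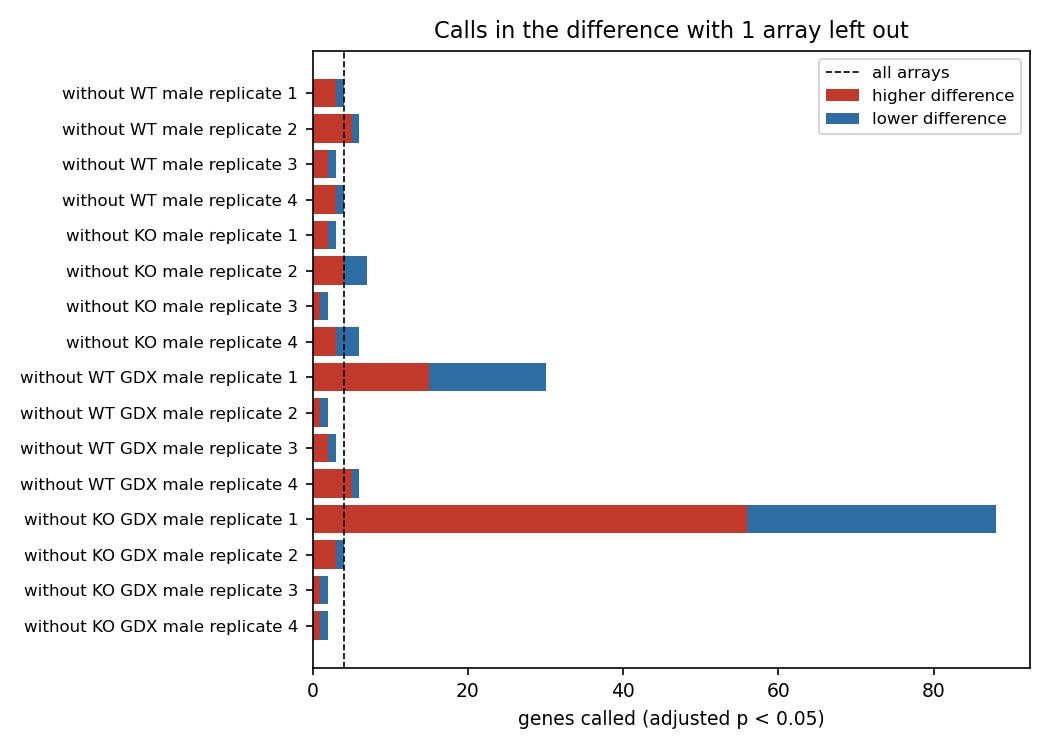
The number of genes called in the difference (adjusted p under 0.05) when 1 of the 16 male arrays is left out, split into positive (red) and negative (blue) differences, with the count from all arrays, 4, as a dashed line. Leaving out KO GDX array 1 gave 88 calls and leaving out WT GDX array 1 gave 30, whereas the other 14 fits gave 2 to 7.

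Akr1c18 had the largest estimate of all named symbols and did not pass the test. It encodes the 20-alpha-hydroxysteroid dehydrogenase that inactivates progesterone and marks the X-zone. Its level was 4.51, 4.26, 4.10 and 4.19 in WT intact males and 10.90, 6.57, 6.36 and 10.96 in KO intact males, where arrays 1 and 4 stood far above arrays 2 and 3. After gonadectomy it was 12.35, 12.43, 12.04 and 12.66 in WT and 12.62, 12.76, 12.68 and 12.75 in KO males. Gonadectomy raised it by 8.11 ± 0.73 in WT (adjusted p 1.28e-06) and by 4.00 ± 0.73 in KO males (adjusted p 0.00107), and the knockout raised it in intact males (4.43 ± 0.73, adjusted p 0.0103). In GDX males the knockout effect was 0.33 ± 0.73 (adjusted p 0.859), with all 8 arrays at 12.04 or higher. The difference was -4.10 ± 1.04 (adjusted p 0.181), with WT intact males under 5. The only other X-zone marker tested, the thyroid hormone receptor gene Thrb, rose with gonadectomy in WT (1.10, adjusted p 0.000444) and KO males (1.14, adjusted p 0.000126), and its difference was 0.04 (adjusted p 0.984), of a sign that changed between settings.

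Other large estimates, chosen after their values were seen, did not pass the test either. Of the 30 largest by size among named symbols, 18 were positive and 12 negative, 3 were called, and 26 had an unadjusted p under 0.05. Sv2c, a synaptic vesicle protein, stood at 5.32, 5.45, 5.31 and 5.26 in WT intact, 6.38, 5.04, 5.87 and 6.81 in KO intact, 5.27, 5.17, 4.90 and 5.25 in WT GDX and 6.47, 8.54, 9.63 and 9.63 in KO GDX males. KO intact array 4 lay above KO GDX array 1, and the other KO GDX arrays above all others. Its difference was 2.73 ± 0.69 (adjusted p 0.184). Megf10, a receptor for engulfment, was at 1.70 (adjusted p 0.281), the urea transporter Slc14a2 at 1.51 (adjusted p 0.178), Shisa6, an auxiliary protein of glutamate receptors, at 1.51 (adjusted p 0.178), and the retinol dehydrogenase Rdh1 at 2.26 (adjusted p 0.282). Shisa6 lay at 5.35 to 5.89 in KO GDX males and at 3.66 to 4.45 in every other male array. Slc14a2 lay at 4.66 to 4.95 in intact males. Both passed the filter only with the help of KO GDX or KO female arrays, so the filter favoured their pattern, and their sizes are uncertain. Among the negative ones Aldh1a1, a retinaldehyde dehydrogenase, was at -2.30 (adjusted p 0.295). Ly6d, which lies near Cyp11b2 on chromosome 15 and so near the Cre insertion, was at -2.32 (adjusted p 0.212). Its level was 7.80, 9.49, 9.49 and 9.28 in WT intact, 8.48, 10.03, 8.91 and 8.23 in KO intact and 8.11, 9.41, 9.07 and 8.42 in WT GDX males, against 6.76, 6.62, 6.38 and 5.59 in KO GDX males. WT males with Cre (8.42 to 9.41) lay within the range of those without it (7.80 to 9.49), and among males only the KO GDX group stood lower. KO females stood at 8.03, 6.95, 6.65 and 5.9, and WT females, which carry Cre, at 8.92, 9.24, 9.03 and 9.13. A part of the nearby Cre insertion in these levels was not tested.

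Taken by itself, the knockout changed 609 genes in GDX males (4.23%), 325 higher and 284 lower, and 16 in intact males (0.111%), 10 higher (0.0694%) and 6 lower (0.0416%). A further quantile normalization gave 11 higher and 11 lower in intact males. These comparisons share no arrays. The 325 genes that rose in GDX males had a median effect of 0.50 there and of 0.08 in intact males, against -0.0104 over all genes. In intact males 229 of them (70.5%) had the same sign, against 58.2% of all 14411 genes, and 7 were called. The 284 that fell had medians of -0.39 and -0.07, 228 (80.3%) had the same sign in intact males, and 3 were called. Because these genes were chosen for passing in GDX males, their effects there are large by choice, and the gap between the medians is not a test. Of the difference itself, 243 of the 325 and 163 of the 284 had an unadjusted p under 0.05 in the same direction. Over all 14411 genes there were 714 positive and 647 negative. The GDX knockout effect is part of the difference, so the choice largely fixes these shares. In the adjusted test 3 of the 325 and 1 of the 284 passed. A gene called in GDX males and not in intact males was therefore, for all but 4 genes, not shown to respond differently. The counts depended on single arrays, with 214 to 1180 genes in GDX males (1180 without KO GDX array 1, 391 without KO GDX array 2, 214 without array 3, 225 without array 4, 281 without WT GDX array 2 and 287 without WT GDX array 3). In intact males the count was 4 without KO array 1, 8 without WT array 3 and 9 without WT array 4.

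In the other direction, of the 16 genes that the knockout changed with the testes in place, most were also called in GDX males. The 10 genes that rose in intact males had a median effect of 0.90 there and 0.71 in GDX males, 9 had the same sign, and 7 were called in both. The 6 that fell had medians of -0.54 and -0.39, all had the same sign, and 3 were called in both. Efemp1, above, was the one gene whose sign differed. Inha, the inhibin alpha subunit, a gonadal and adrenal suppressor of activin signalling, rose in the intact knockout (0.77 ± 0.12, adjusted p 0.00774), from 7.26, 7.27, 7.37 and 7.61 to 8.22, 8.34, 8.03 and 8.0. In GDX males it was 7.86, 7.35, 7.39 and 7.27 in WT and 7.82, 7.40, 7.38 and 7.54 in KO arrays, which overlapped, and its difference was -0.70 ± 0.17 (adjusted p 0.178). Across the 14411 genes, the knockout effects in GDX and intact males correlated with a Pearson r of 0.32 (Spearman rho 0.24), as a description over genes that are not independent. Gonadectomy changed 2225 genes in KO males (15.4%) and 648 in WT males (4.5%), comparisons that share no arrays, and their effects correlated with an r of 0.66. KO males shared 1 genotype, whereas the WT comparison also spans the mixed control genotypes, so the 2 counts are not alike. The count in KO males was 1374 to 1461 without KO GDX array 3 or KO intact arrays 2 or 3. That in WT males was 292 to 386 without WT intact arrays 2, 3 or 4 or WT GDX arrays 2 or 3.

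The pathway of the deleted gene was described with lists fixed for this comparison. Of their 272 tested members, 1 was called in the difference, Acpp in the androgen response list (background 0.0278%). Medians below are of the difference in log2 units, beside -0.0055 over all genes. PKA subunits and inhibitors had a median of 0.02 over 9 members, with 6 positive and 3 negative. Prkar2a, a second regulatory subunit, was at 0.22 (adjusted p 0.45), the catalytic subunit Prkaca at 0.20 (adjusted p 0.518). Of the adenylyl cyclases and phosphodiesterases, which make and break down cyclic AMP, 6 of 20 were positive and 14 negative (median -0.03). The largest were the cyclases Adcy2 at -0.52 (adjusted p 0.335) and Adcy6 at -0.52 (adjusted p 0.282). Immediate early and other targets of the cyclic AMP factor CREB had a median of 0.12, with 13 of 17 positive. Their mean level was 8.14 in KO GDX array 1 and 6.79 to 6.98 in the other KO GDX arrays, and without single arrays the median ran from -0.09 to 0.24. Fos, an early response factor, was at 0.95 (adjusted p 0.693), and ran from 0.32 to 1.32 with single arrays left out. Nr4a1, an orphan nuclear receptor, was at -1.56 (adjusted p 0.443), and ran from -2.20 to -1.18.

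Genes of ACTH-driven steroid synthesis were called in the GDX knockout and not in the intact one, without a called difference. Of the steroidogenic core, 3 of 13 rose in GDX males (background 2.26%) and 0 in intact males (background 0.0694%), and 9 of 13 differences were positive (median 0.08). Mrap, the accessory protein of the ACTH receptor, stood at 10.03, 9.85, 9.94 and 9.41 in WT intact, 10.03, 9.87, 9.87 and 9.85 in KO intact, 9.84, 9.68, 9.80 and 10.12 in WT GDX and 10.40, 10.51, 10.80 and 10.79 in KO GDX males. KO GDX males lay above all others, and the difference was 0.67 ± 0.16 (adjusted p 0.163), with the receptor Mc2r itself at 0.15 (adjusted p 0.828). Among 16 genes of cholesterol synthesis 2 rose in GDX males and 0 in intact males, beside the same backgrounds of 2.26% and 0.0694%. These were Dhcr7, which makes cholesterol from its last precursor, with a difference of 0.63 (adjusted p 0.163), and the mevalonate kinase Mvk at 0.31 (adjusted p 0.337). The list as a whole had nearly equal medians, 0.37 in the GDX and 0.39 in the intact knockout, and a median difference of 0.01, which ran from -0.24 to 0.13 with single arrays left out. Of 12 genes of cholesterol uptake, storage and sensing 1 rose in GDX males (background 2.26%), with a median difference of 0.03. Cyb5a, the cytochrome b5 that assists androgen synthesis, rose in the GDX knockout (0.59 ± 0.12, adjusted p 0.00755), and its difference was 0.53 (adjusted p 0.291). The 5 genes of adrenal androgen synthesis had a median of -0.12, and of 0.40 without WT GDX array 1.

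Of the glomerulosa list, the markers of the aldosterone-making zone, 2 of 10 fell in GDX males (background 1.97%) and 0 in intact males (background 0.0416%). The median difference was -0.14, and ran from -0.32 to 0.0135 with single arrays left out (0.0135 without WT intact array 1). The genes that fell were Hsd3b6, a steroid dehydrogenase, and Dab2, an endocytic adaptor (-0.33, adjusted p 0.368). Hsd3b6 stood at 9.03, 10.09, 9.93 and 10.91 in WT intact and 9.46, 11.67, 8.46 and 7.78 in KO intact males, a wide spread. In GDX males it was 9.59, 8.73, 8.46 and 8.65 in WT and 6.83, 5.49, 6.55 and 6.06 in KO arrays, without overlap, and the difference was -1.97 ± 0.85 (adjusted p 0.46). Of 9 canonical WNT targets, genes switched on by beta-catenin in the outer cortex, 5 were positive (median 0.15), with Apcdd1 at 0.60 (adjusted p 0.295), Notum at 0.44 (adjusted p 0.276) and Lgr5 at -0.49 (adjusted p 0.581). Rspo3, a capsular ligand that sustains WNT signalling, fell in the GDX knockout (-0.47 ± 0.13, adjusted p 0.0432), with a difference of -0.45 (adjusted p 0.426). The capsule list had a median of -0.15 over 13 genes.

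Of the hormone targets, the 8 androgen response genes had a median of -0.11, with Acpp lowest at -2.42, and the other 7 between -0.35 (Slc45a3) and 0.24 (Fads1). In the list of 5 receptors for gonadal and pituitary hormones, which includes those for corticosteroids, Nr3c1, the glucocorticoid receptor, fell in GDX males (-0.46 ± 0.13, adjusted p 0.0422), and its difference was -0.38 (adjusted p 0.517). Glucocorticoid response genes had similar medians in both knockouts, 0.28 in GDX and 0.27 in intact males, and 0.07 for the difference (-0.07 to 0.14 with single arrays left out). Of these 14, 3 rose in GDX (background 2.26%) and 1 in intact males (background 0.0694%). Mt1, a metallothionein, had a difference of 0.54 (adjusted p 0.295) and Cdkn1a, a cell cycle inhibitor, one of -0.73 (adjusted p 0.436). The 10 gonadal-like genes, expressed in ovary or testis and induced in some adrenals after gonadectomy, had a median of -0.0046. Of 13 genes of glutathione and oxidative stress 10 were positive (median 0.18), 2 rose in GDX males (background 2.26%) and 0 in intact males (background 0.0694%), led by the catalase gene Cat at 0.57 (adjusted p 0.27) and the sulfiredoxin gene Srxn1 at 0.39 (adjusted p 0.443). Of 16 proliferation genes 7 were positive (median -0.04, and -0.28 to 0.05 with single arrays left out). The 13 genes of the extracellular matrix had a median of 0.16, which ran from -0.24 to 0.27 with single arrays left out. KO GDX array 2 had a mean level of 9.74 for this list, against 7.75 to 8.18 in the other KO GDX arrays, and the difference of the collagen gene Col1a1 went from 0.82 to -0.09 without it.

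**Figure D4:**
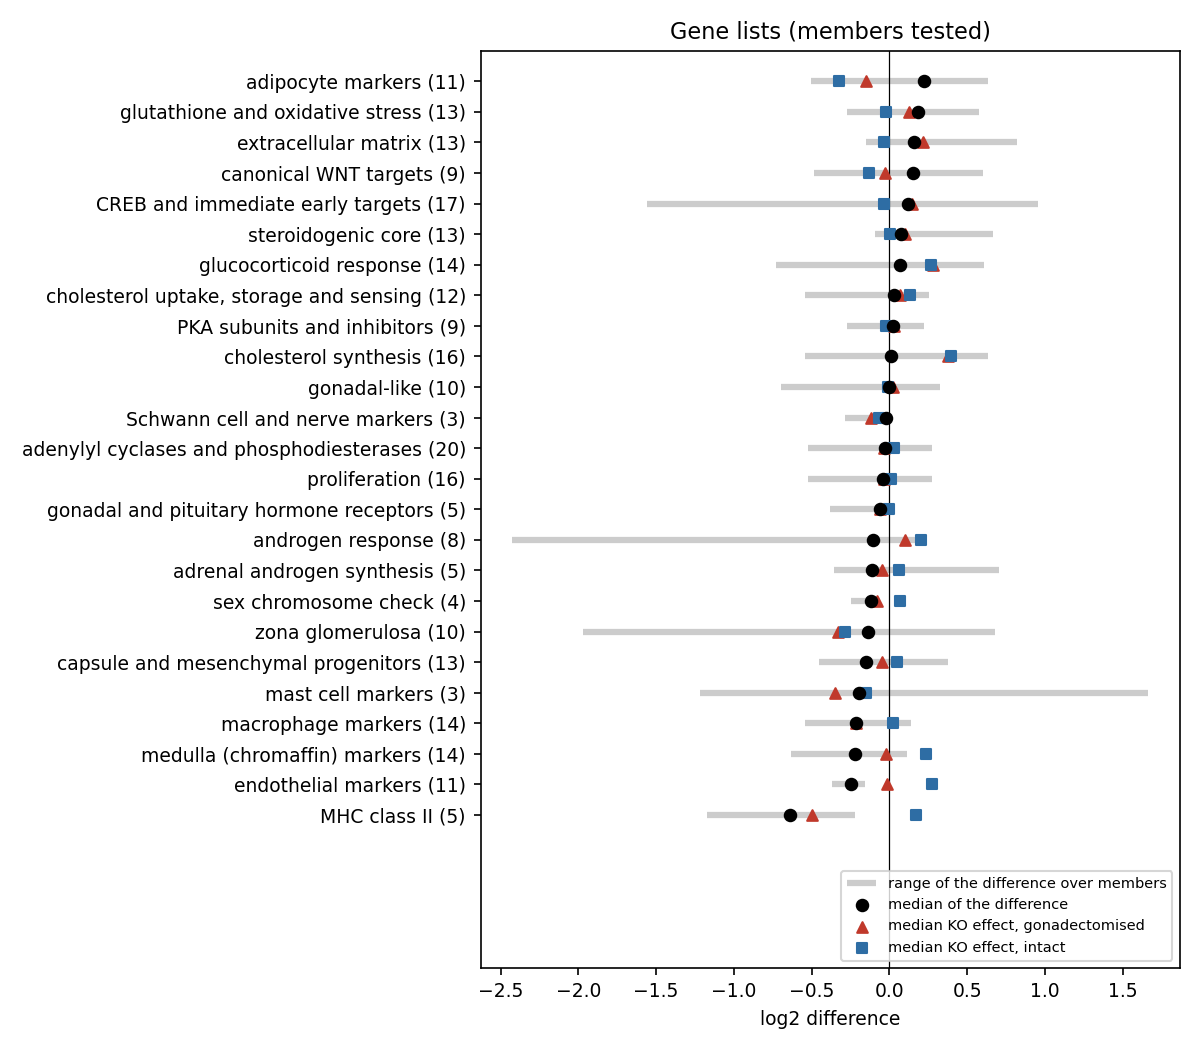
For each gene list with at least 3 tested members (number in brackets), the median over members of the knockout effect in gonadectomised males (red triangles), in intact males (blue squares) and of their difference (black points), with grey bars for the range of the difference, all in log2 units. Most medians of the difference lie near 0, and those of MHC class II (-0.64), endothelial (-0.25) and medulla (-0.22) markers are the lowest.

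No marker of another cell type was called in the difference, and several of these lists had medians away from 0. All 11 endothelial markers had a negative difference (median -0.25, and -0.32 to -0.20 with single arrays left out). None was called and 3 had an unadjusted p under 0.05, against 9.44% of all genes in either direction. The mean level of the 11 endothelial markers was 8.41 in WT intact, 8.66 in KO intact, 8.33 in WT GDX and 8.31 in KO GDX males. The angiopoietin receptor Tek was at -0.35 (adjusted p 0.524) and the endothelial cadherin Cdh5 at -0.37 (adjusted p 0.617). Of 14 markers of the chromaffin cells of the medulla, 13 were negative (median -0.22, and -0.35 to -0.07 with single arrays left out, -0.07 without WT GDX array 1). Of the 14, 0 were called and 0 had an unadjusted p under 0.05, against the same 9.44%. Their mean level was 9.35, 9.62, 9.26 and 9.29 in the same order. With the endothelial mean as a covariate, 1 gene was called, Acpp, at a difference of -2.64. Bpifc stood at 2.64 and Eda at 0.67 (adjusted p 0.0976 each), and Ceacam1 at 1.17 (adjusted p 0.173). With the medulla mean, 2 were called, Acpp at -2.45 and Bpifc at 2.73, and Ceacam1 at 1.48 and Eda at 0.59 had an adjusted p of 0.051. The part of cell composition in the other differences was not tested.

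The 5 MHC class II genes, which present antigen on macrophages, dendritic cells and B cells, all had a negative difference (median -0.64, and -0.74 to -0.54 with single arrays left out). Of these, 0 were called and 4 had an unadjusted p under 0.05, against 9.44% of all genes in either direction. H2-Aa stood at 7.90, 8.62, 8.50 and 8.38 in WT intact and 8.66, 8.30, 8.72 and 8.43 in KO intact males, and at 8.08, 8.67, 8.56 and 8.15 in WT GDX and 7.77, 7.28, 7.55 and 6.88 in KO GDX males. KO GDX males lay below every other male array, and the fall passed the test there (-1.0 ± 0.28, adjusted p 0.0434), while the difference of -1.17 ± 0.39 did not (adjusted p 0.308). Of 14 macrophage markers 10 were negative (median -0.21), and 8 to 14 with single arrays left out (median -0.43 to -0.06), with mean levels in KO GDX males from 7.16 to 8.09. Among 11 adipocyte markers 9 were positive (median 0.22, but -0.21 to 0.61 with single arrays left out), and with their mean as a covariate 13 genes were called. The remaining marker lists were small: 2 tested lymphocyte markers (median -0.07), 3 mast cell markers (-0.20) and 3 Schwann cell markers (-0.02). None of 5 erythrocyte markers could be tested. The 4 sex chromosome genes taken as a check were at -0.25 to -0.06.

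The female arrays took part in the choice of these genes only through the choice of probe set, the filter and the shared estimate of spread. They give the knockout effect in a gland that also lacks testicular hormones. In females the knockout changed 32.6% of the genes tested. Of the 10 positive genes, 8 were called higher in the female knockout, Bpifc, Ceacam1, Eda, Hdc, St8sia5, Scarb1, Cdh17 and Trp53i11 (background 13.9%). All 10 were among the 325 genes called higher in the GDX knockout, of which 262 (80.6%) were called higher in females. The count of 8 is thus near the share of that larger set and is not particular to genes chosen by the difference. Bpifc and Cdh17 were over 5 in KO female and KO GDX arrays alone, with all WT females under it. Cdh17, over 5 in 3 KO GDX arrays, passed the filter only together with KO females, so its rise there was partly fixed. Bpifc met the filter by its 4 KO GDX arrays alone. Of the other 8 positive genes, 6 were called higher. The female effect was 4.42 ± 0.30 for Bpifc (adjusted p 5.91e-09), 1.72 ± 0.18 for Ceacam1 (adjusted p 4.90e-07) and 1.11 ± 0.08 for Eda (adjusted p 5.91e-09). Vps33b at 0.26 (adjusted p 0.0752) and Sike1 at -0.03 (adjusted p 0.709) did not pass. Of the 10 negative genes, 4 were called lower in females, Gpr141b, Arhgap31, Aplnr and Acvr1 (background 18.7%), and 2 higher, Acpp and H2aj (background 13.9%). Acpp thus rose in the female knockout (1.13 ± 0.26, adjusted p 0.0022) and fell in that of GDX males. Gpr141b was over 5 in 1 WT female and 0 KO female arrays, so its fall there is uncertain. With 10 genes and these backgrounds, nothing is read from the counts of 4 and 2. Fa2h stood at -0.50 ± 0.40 (adjusted p 0.368). Over all 14411 genes the difference and the female knockout effect, which share no arrays, had the same sign in 66% and correlated with an r of 0.41 (rho 0.43).

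**Figure D5:**
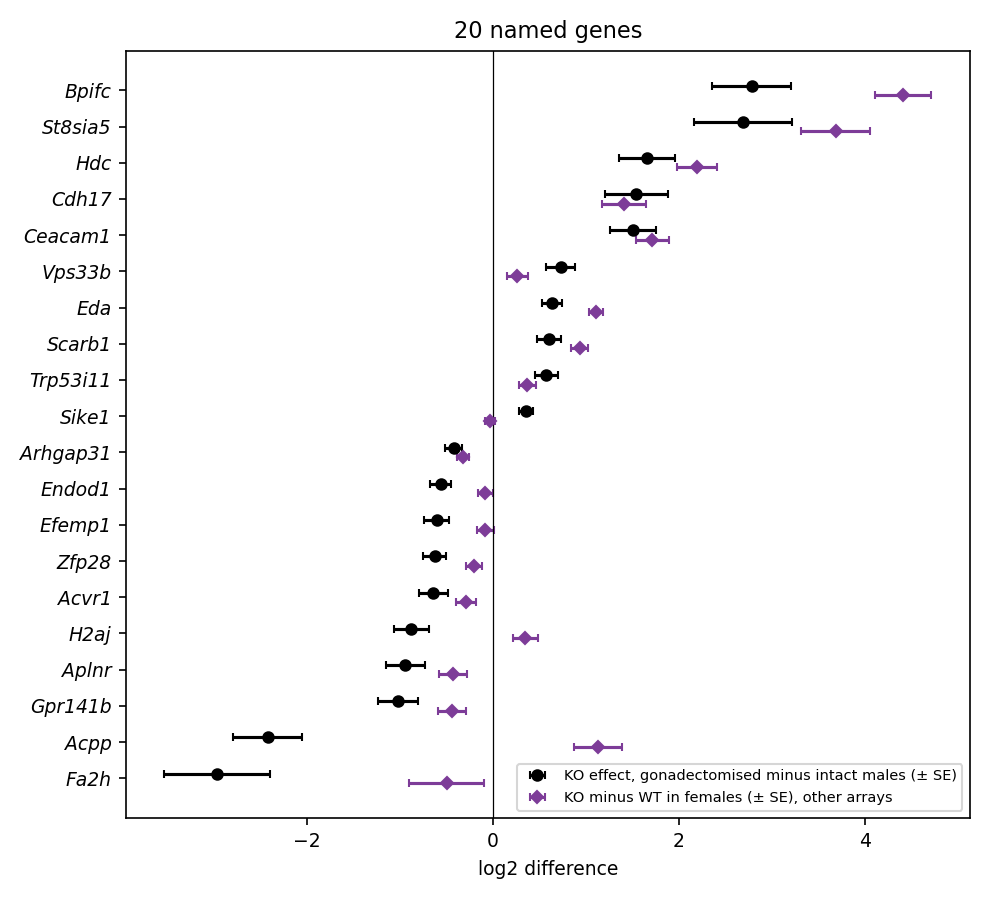
The difference of knockout effects between gonadectomised and intact males (black circles) and the knockout effect in females (purple diamonds), in log2 units ± standard error, for the 10 positive and 10 negative genes of lowest p. The female values of the positive genes lie above 0 except that of Sike1, and Acpp and H2aj have values on opposite sides of 0.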

How the data were processed

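The deposited values are log2 signals that the authors computed with RMA, per the submitters' processing notes, which give no software or version. Of 32202 probe sets, 22943 carried 1 gene symbol, 1731 several and 7528 none. The probe set of highest mean stood for each of 21957 genes (828 had more than 1), and 14411 genes over 5 in at least 4 of the 24 arrays were tested. A limma 3.58.1 model (R 4.3.3) of the 6 group means was fitted to all 24 arrays with lmFit and eBayes, leaving 18 residual degrees of freedom beside 3.41 of the prior. The calling threshold was an adjusted p of 0.05 by the Benjamini-Hochberg method over all genes tested. The labels call the arrays of a group biological replicates and name no litter or batch shared by a number. Same-numbered arrays of WT GDX and KO GDX males deviated together in all 4 pairs (r 0.12 to 0.24). Those of WT intact and WT GDX males did so nearly as much (r 0.09 to 0.24). The main fit used no pairing, and the replicate number as a block was an alternative. The fit was tested on simulated data. Array medians lay between 5.20 and 5.29, and the number of arrays limits the precision.

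Named are Prkar1a and Cyp11b2, called genes, each direction filled to 10 by lowest p (predicted symbols aside), the most different members of each list (at most 4), and some genes chosen after their values were seen, as stated. Members, lists and tests were chosen with earlier results of these data known. Alternatives were the 16 male arrays alone, filters, probe set rules, another quantile normalization, trend and robust settings, array weights, the replicate number as a block, marker means as covariates (the endothelial one chosen after seeing the data) and each array left out. Readable probe sets with no symbol or several (3687) were fitted separately, and limma called 0 (lowest adjusted p 0.13), with 273 at an unadjusted p under 0.05.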

Additional observations from a re-analysis of the deposited data

Results flagged for a closer look

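A difference between the knockout effects of GDX and intact males, tested as an interaction in limma, was found for Bpifc (2.79), Ceacam1 (1.5), Eda (0.64) and Acpp (-2.42). Among 76 groups of 4 arrays examined for single arrays far from the rest by Dixon's criterion, 4 were found, and chance gives about 1 in 20. Scarb1 stood at 11.82 in WT GDX array 4 (the others at 11.51 to 11.56) and at 12.05 in KO GDX array 1 (the others at 12.46 to 12.53). Ly6d stood at 7.80 in WT intact array 1 (the others at 9.28 to 9.49). Mrap stood at 10.03 in KO intact array 1 (the others at 9.85 to 9.87).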

How the results depend on the processing

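The count of 4 genes in the difference became 9 with the 16 male arrays alone (3 of the 4 kept, Ceacam1 lost, Hdc and St8sia5 among those gained), 45 with array weights, 2 with the medulla, 13 with the adipocyte and 1 with the endothelial covariate, and 2 to 88 with 1 array left out. The count in GDX males (609) became 393 with 16 arrays and 1200 with array weights (214 to 1180 with 1 array left out), and that in intact males (16) became 5 with 16 arrays and 25 with the adipocyte covariate (4 to 24). The gonadectomy effect in KO males (2225) became 3599 with array weights, 1004 with the medulla and 368 with the endothelial covariate (1374 to 2662), and that in WT males (648) became 403 with 16 arrays (292 to 788). Filters, probe set rules, quantile normalization and trend and robust settings kept these 5 counts within 1.5 times. Thrb turned to -0.0215 with array weights, -0.0399 with the medulla and -0.33 with the endothelial covariate (-0.19 to 0.16 with 1 array left out), and Col1a1 ran from -0.0948 to 1.18 with 1 array left out. The cause of these shifts was not tested. Of 2036 values of single genes under alternatives, 1942 kept direction and side of the threshold.

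Same-numbered arrays correlated with r from -0.31 to 0.24 over all pairs of groups, and 3 of 16 arrays correlated best with their own number. With the replicate block 5 genes were called in the difference, the 4 and Gpr141b. The block gave 551 in GDX males (514 of the 609 kept), 15 in intact males, and 2091 and 588 in the gonadectomy effects of KO and WT males, and moved none of these counts by over 1.5 times.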
